A study of Mus musculus with 6 samples.

Results

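The nuclear genes of the oxidative phosphorylation (OXPHOS) complexes were followed in AE9a leukemia cells of the endosteal bone marrow (EBM) and the central bone marrow (CBM). Members were the protein-coding genes of the count table whose symbol starts with Nduf, Uqcr or Atp5, or with Cox and a digit from 4 to 8, together with Sdha, Sdhb, Sdhc, Sdhd, Cyc1 and Cycs. This rule used names and gene type and no measured value. It gave 96 members of 54532 genes, with 95 distinct symbols, since Atp5o stands under 2 identifiers. Of these, 89 had enough counts to be tested, among 13352 genes tested in all, and the 7 others were Cox4i2, Cox6a2, Cox7b2, Cox8b, Cox8c, Ndufa4l2 and the copy of Atp5o that held no counts.

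The cells of all 6 libraries came from C57BL/6 mice carrying leukemia driven by AML1-ETO9a (AE9a), a truncated splice form of the t(8;21) fusion protein, which had been introduced by retrovirus into c-Kit+ progenitors marked by GFP. The cells had been passed to third-generation recipients, so all libraries derive from a transplanted leukemia and not from a primary one. The 3 CBM libraries hold leukemia cells flushed from femurs and tibias, and the 3 EBM libraries hold leukemia cells that collagenase released from the flushed bone. Both groups carried AE9a, and no further treatment is named for either. Only EBM cells met the enzyme, so region and digestion cannot be told apart, and all cells were kept in serum-containing medium around sorting. The labels number the libraries but do not say whether they come from separate mice, so p-values measure only the spread between these libraries, which may be technical.

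OXPHOS complexes sit in the mitochondrial inner membrane. Complex I (NADH dehydrogenase) and complex II (succinate dehydrogenase) pass electrons through coenzyme Q to complex III (the cytochrome bc1 complex), cytochrome c carries them to complex IV (cytochrome c oxidase), which reduces oxygen to water, and complex V (ATP synthase) uses the proton gradient to make ATP. Complex II and cytochrome c are encoded in the nucleus alone, whereas complexes I, III, IV and V also hold subunits made from the mitochondrial genome. Oxidative phosphorylation depends on oxygen and is studied in leukemia stem cells as a source of energy, and the study compared the regions because the endosteal niche is held to be poor in oxygen.

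The estimated differences of the nuclear OXPHOS genes between the regions were small. No member passed edgeR's quasi-likelihood test after Benjamini-Hochberg adjustment over all genes tested, where the lowest adjusted p of a member was 0.596, and no gene of the 13352 passed it (0.0%). A test that called no gene cannot show that the members were unchanged. The log2 fold changes of EBM against CBM ran from -0.21 for Ndufa12 to 0.27 for Ndufaf2, and 73 of 89 members (82.0%) lay above 0 beside 50.4% of all genes tested. Their median was 0.11 on the log2 scale, beside 0.0017 over all genes tested. Among the other scalings and corrections run on the same 89 members, the number above 0 ran from 65 with upper quartile factors to 73, and DESeq2 and the fit without a low-count filter each put 75 of 93 above 0. In bulk libraries, a change in RNA per cell and a change in the share of cells of a kind cannot be told apart.

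Promoters show which short sequences part of the members hold and how genes for a single protein differ. RefSeq promoters of GRCm38.p6, from 250 bases before to 50 bases after the start, were matched to 77 of the 95 symbols, 2 of them through a synonym, which gave 82 promoters. NRF1 and ETS factors such as GABP are known activators of nuclear respiratory genes, and Cycs, the gene of cytochrome c, is a textbook NRF1 target. The 5 promoters below are those of Cycs at chr6:50566520-50566819, of Ndufa10 at chr1:92473709-92474008, the member with the smallest p, and of Atp5g1 at chr11:96075582-96075881, Atp5g2 at chr15:102670998-102671297 and Atp5g3 at chr2:73911277-73911576, which encode the same mature c subunit of ATP synthase. All 5 lie on the minus strand and are written 5′ to 3′ in the direction of transcription, and capitals mark bases within a match to the NRF1 letters GCGCATGCG, read on both strands.
Cycs: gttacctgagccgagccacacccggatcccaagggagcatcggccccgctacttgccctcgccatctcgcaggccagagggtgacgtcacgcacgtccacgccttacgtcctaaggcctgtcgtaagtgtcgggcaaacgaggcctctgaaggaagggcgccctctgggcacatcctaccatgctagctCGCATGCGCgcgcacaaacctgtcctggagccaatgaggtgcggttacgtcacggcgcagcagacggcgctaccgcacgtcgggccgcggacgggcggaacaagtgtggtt
Ndufa10: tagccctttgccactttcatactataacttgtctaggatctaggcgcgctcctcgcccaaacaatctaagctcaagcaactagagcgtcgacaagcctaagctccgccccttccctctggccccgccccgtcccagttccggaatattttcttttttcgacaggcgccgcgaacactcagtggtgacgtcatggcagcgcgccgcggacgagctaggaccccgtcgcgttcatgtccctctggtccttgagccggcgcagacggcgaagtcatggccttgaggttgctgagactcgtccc
Atp5g1: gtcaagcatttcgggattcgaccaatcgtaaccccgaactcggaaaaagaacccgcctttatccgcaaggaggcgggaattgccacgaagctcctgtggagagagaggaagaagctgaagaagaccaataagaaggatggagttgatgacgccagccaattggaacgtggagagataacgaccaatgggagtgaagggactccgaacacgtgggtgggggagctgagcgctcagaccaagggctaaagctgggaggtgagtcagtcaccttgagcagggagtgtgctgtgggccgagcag
Atp5g2: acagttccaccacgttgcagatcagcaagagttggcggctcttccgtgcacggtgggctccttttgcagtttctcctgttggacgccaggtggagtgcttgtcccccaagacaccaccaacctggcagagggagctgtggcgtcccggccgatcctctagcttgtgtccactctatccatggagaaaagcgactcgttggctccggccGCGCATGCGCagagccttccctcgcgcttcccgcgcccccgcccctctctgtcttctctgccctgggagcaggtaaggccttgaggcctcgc
Atp5g3: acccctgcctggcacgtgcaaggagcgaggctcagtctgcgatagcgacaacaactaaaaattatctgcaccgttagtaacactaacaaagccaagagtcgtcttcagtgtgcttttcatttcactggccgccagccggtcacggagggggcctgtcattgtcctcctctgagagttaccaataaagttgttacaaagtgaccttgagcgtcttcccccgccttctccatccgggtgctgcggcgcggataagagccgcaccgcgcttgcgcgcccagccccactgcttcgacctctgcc

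The NRF1 letters stood 61 bases before the start of Cycs. In Atp5g2 they matched on both strands, 42 and 41 bases before the start, and neither Atp5g1 nor Atp5g3 held them within the window. Among members with a promoter, 14.3% held GCGCATGCG, beside 4.57% of the genes tested that have a promoter and 1.75% of all 32851 promoters in the table. The shorter NRF1 core CATGCGC, which overlaps the longer site, was held by 20.8% of members beside 8.43% of genes tested and 3.91% of all promoters. The YY1 letters AAGATGGC were held by 14.3% of members beside 5.81% and 2.75%. The ETS letters CCGGAAG were held by 23.4% of members, including Cox8a and Ndufs3, beside 22.1% of genes tested and 8.86% of all promoters. The hypoxia response core ACGTG was held by 26.0% of members, beside 30.0% of genes tested and 19.6% of all promoters. The E-box CACGTG, which contains the hypoxia core and is bound by Myc and USF, was held by 7.79% of members beside 11.9% and 7.15%, with Atp5g1 and Atp5g3 among them. The GC box GGGCGG of the Sp factors was held by 46.8% of members beside 69.2% and 35.7%. Members with and without the NRF1 core had nearly the same median log2 fold change of EBM against CBM, 0.12 for each of the 16 and the 59 members tested. For the hypoxia core the medians were 0.11 over 19 members and 0.12 over 56, and for the YY1 letters 0.11 over 11 and 0.12 over 64. Members with the ETS letters had a median of 0.095 over 18, beside 0.12 over the 57 others, and those with the GC box 0.11 over 35, beside 0.13 over 40. The E-box had the widest gap, 0.06 over 6 members beside 0.12 over 69, with no test.

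The genes differed widely in level per length, measured as RPKM from TMM-normalized counts and the deposited gene lengths and averaged over the 6 libraries. The median member stood at 48.5 RPKM, beside 6.93 RPKM for all genes tested. Complex IV had the highest median at 99.0 RPKM, followed by complex V at 75.4 and complex III at 70.3. The medians of complex II at 53.9, of the complex I core at 49.2 and of the complex I accessory subunits at 38.0 came next. The assembly factors of complex I, which help to build it and leave, had a median of 7.26 RPKM. The order of the complexes depends on the gene lengths. By median CPM, complex V came first at 154, followed by complex IV at 124, complex II at 111.5 and complex III at 99.4. The highest level of all was that of Atp5b, the catalytic beta subunit of ATP synthase, with 332 ± 11.4 RPKM in CBM (SD, n = 3) and 372 ± 21.5 RPKM in EBM. Cox6a1, a small regulatory subunit of complex IV, followed with 329 ± 19.3 RPKM in CBM and 333 ± 15.9 in EBM, and Cox8a with 287 ± 22.9 and 337 ± 28.6. Within 1 SD, Cox6a1 overlapped with Atp5b in CBM and with Cox8a in both regions, and Atp5b overlapped with Cox8a in EBM, so their order is not firm. Cycs, with 17.8 ± 2.96 RPKM in CBM and 19.7 ± 0.878 in EBM, stood below every subunit of complexes II and III. This holds per length only, with a deposited length of 3404 bases. In CPM, Cycs had means of 60.5 in CBM and 66.9 in EBM, above Uqcr10 of complex III at 54.7 and 56.1.

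**Figure D1:**
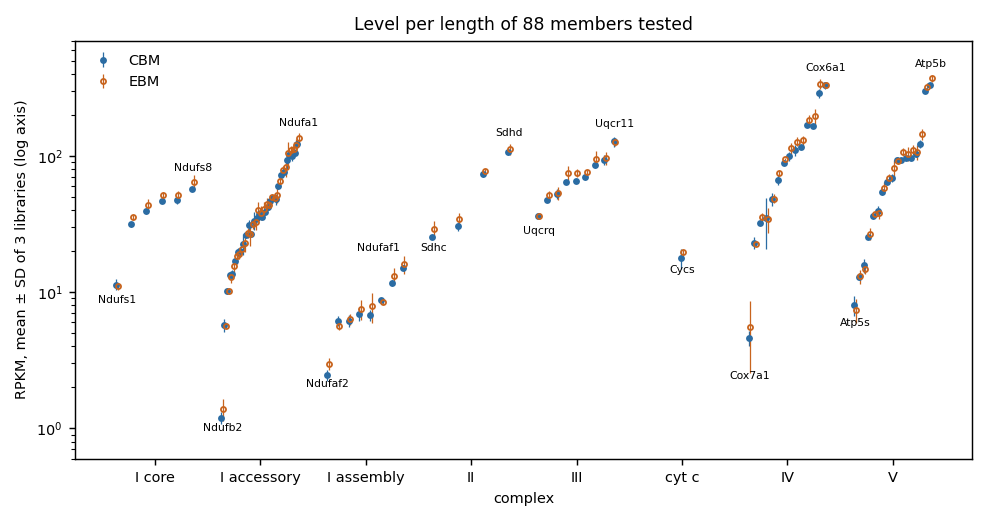
Level per length (RPKM, log axis) of 88 of the 89 members tested, by complex, with filled points for the mean of 3 CBM libraries, open points for the mean of 3 EBM libraries and bars for 1 SD. The lowest and the highest member plotted in each complex are named. Atp5b is the highest at 352 RPKM over all libraries and Ndufb2 the lowest at 1.3 RPKM, while the regions lie close together for nearly every member.

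Subunits of a complex are assembled in fixed proportions, but their RNA levels were not equal. Within complex III the highest member, Uqcr11 at 127 RPKM, stood 3.5-fold above the lowest, Uqcrq at 36.3 RPKM. Within complex I the accessory subunits spread 99.3-fold, from Ndufb2 at 1.3 RPKM to Ndufa1 at 129 RPKM. The deposited length of Ndufb2 is 5628 bases, that of Ndufa1 419 bases, and the length counts every annotated exon of a gene, so the level of a gene with long rare transcripts is understated. Members were short genes, with a median length of 1718 bases beside 3702.5 bases for all genes tested.

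Complex I takes electrons from NADH at its tip and passes them along iron-sulfur clusters to coenzyme Q. Of the 7 core subunits, 6 lay above 0 and the median log2 fold change was 0.14. Ndufs3, a core subunit of the quinone-binding module, stood at 65.6, 68.6 and 71.7 CPM in CBM 1 to 3 and at 76.7, 74.2 and 79.9 CPM in EBM 1 to 3. All 3 EBM libraries were above all 3 CBM libraries, by 0.16 ± 0.085 on the log2 scale (SE, edgeR adjusted p = 0.698). Ndufs7, which holds the last iron-sulfur cluster before coenzyme Q, stood at 83.1, 77.0 and 80.8 CPM in CBM and at 92.1, 84.1 and 89.8 CPM in EBM, again without overlap (log2 0.14 ± 0.085, edgeR adjusted p = 0.747). Genes without overlap were 28.6% of the 7 core subunits, beside 7.47% of all genes tested. Ndufs8, another core subunit of that module, overlapped between the regions because EBM 2, at 54.2 CPM, lay within the CBM values of 53.4 to 56.1 CPM. Ndufs1, the largest subunit, ran from 82.8 to 99.97 CPM in CBM and from 84.3 to 95.1 CPM in EBM.

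Ndufa10 (ENSMUSG00000026260, chr1:92439010-92473860, minus strand), an accessory subunit on the matrix side of complex I, had the smallest p of all members. Its level was 88.1, 90.9 and 88.2 CPM in CBM 1 to 3 and 112.7, 95.4 and 108.3 CPM in EBM 1 to 3. The regions did not overlap, EBM 2 lay nearest to CBM, and the fold change was 1.18 (log2 0.24 ± 0.094). It had an unadjusted edgeR p of 0.0367, an adjusted p of 0.596 and an exact two-sided permutation p of 0.1, the smallest that 3 against 3 libraries can give. Of the 29 accessory subunits, 24 lay above 0, with a median of 0.11. The regions did not overlap in 3.45% of them, beside 7.47% of all genes tested. The lowest fold change of all members was that of Ndufa12, an accessory subunit of the matrix arm, with 43.4, 49.4 and 53.0 CPM in CBM and 51.0, 39.0 and 36.4 CPM in EBM. Its regions overlapped (log2 -0.21 ± 0.16, edgeR adjusted p = 0.837). Ndufb7 and Ndufb8, accessory subunits of the membrane arm, had log2 fold changes of -0.061 ± 0.1 and -0.051 ± 0.1. Ndufa7 and Ndufb11, at 0.21 ± 0.11 and 0.19 ± 0.1, overlapped between the regions through EBM 2.

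Of the 8 assembly factors of complex I among the members, 6 lay above 0. The regions did not overlap in 12.5% of them, beside 7.47% of all genes tested. Ndufaf2, a factor of the late assembly of complex I, stood at 7.62, 6.53 and 7.79 CPM in CBM and at 9.49, 7.85 and 9.19 CPM in EBM (log2 0.27 ± 0.17, edgeR adjusted p = 0.753). The regions did not overlap, but EBM 2 exceeded CBM 3 by less than 0.1 CPM. Exons of another gene on the opposite strand cover 65.6% of the exon bases of Ndufaf2. That gene, B230220B15Rik, held 1 count in all, and the sources used here do not say whether counting used the strand. The log2 fold changes of Ndufaf3 and Ndufaf8 were 0.23 ± 0.21 and 0.17 ± 0.16, and those of Ndufaf5 and Ndufaf7 were -0.13 ± 0.15 and -0.031 ± 0.098.

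Complex II links the citric acid cycle to the respiratory chain, and Sdha and Sdhb form its catalytic part while Sdhc and Sdhd anchor it in the membrane. All 4 genes had log2 fold changes above 0 and all 4 overlapped between the regions. Sdhb was at 62.4, 69.7 and 72.5 CPM in CBM and at 73.4, 70.5 and 87.2 CPM in EBM (log2 0.17 ± 0.12). Sdhc was at 80.5, 84.0 and 84.7 CPM in CBM and at 91.6, 83.4 and 108.8 CPM in EBM (log2 0.19 ± 0.12). In each of the 4 genes CBM 1 was the lowest library. The values of Sdha and Sdhd were 0.061 ± 0.089 and 0.073 ± 0.1.

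Complex III held 3 of the 12 members whose regions did not overlap, which is 33.3% of its 9 genes, beside 7.47% of all genes tested. Uqcrc2, a large core protein on the matrix side, stood at 171.9, 164.3 and 164.9 CPM in CBM and at 189.5, 180.1 and 205.7 CPM in EBM, which is 0.2 ± 0.089 on the log2 scale (edgeR adjusted p = 0.65). Uqcrfs1, the Rieske iron-sulfur protein, stood at 90.4, 98.1 and 95.3 CPM in CBM and at 105.5, 100.6 and 106.9 CPM in EBM (log2 0.14 ± 0.082). Uqcrb, a small subunit near the quinone site, had 57.3, 57.2 and 54.5 CPM in CBM and 67.2, 57.5 and 73.1 CPM in EBM (log2 0.23 ± 0.11). EBM 2 was the lowest EBM library in each of these 3 genes. Cyc1, cytochrome c1, had CBM values of 106.9 to 124.7 CPM and EBM values of 105.0 to 129.4 CPM, and its log2 fold change was 0.016 ± 0.12. The small subunits Uqcr11 and Uqcrq were at -0.012 ± 0.1 and -0.0058 ± 0.088.

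Cycs, the mobile carrier between complexes III and IV, had another order of libraries than most members. It stood at 64.4, 49.0 and 68.0 CPM in CBM and at 63.8, 69.7 and 67.3 CPM in EBM. CBM 2 was low and the other 5 libraries lay close together, and the log2 fold change of 0.15 ± 0.14 (edgeR adjusted p = 0.899) became 0.017 without CBM 2.

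In complex IV, 12 of the 14 subunit genes tested lay above 0, with a median log2 fold change of 0.15. Cox8a, a small subunit of the membrane part, stood at 170.8, 147.4 and 151.5 CPM in CBM and at 196.3, 166.4 and 189.1 CPM in EBM (log2 0.23 ± 0.11, edgeR adjusted p = 0.665). EBM 2 lay just below CBM 1, so the regions overlapped. Cox6b1, which faces the intermembrane space, stood at 121.4, 118.5 and 112.7 CPM in CBM and at 147.0, 117.1 and 149.7 CPM in EBM (log2 0.23 ± 0.12), with EBM 2 again within the CBM values. Cox7b, Cox6c and Cox7c, all small subunits, did not overlap between the regions, with log2 fold changes of 0.1 ± 0.077, 0.15 ± 0.087 and 0.15 ± 0.09. These are 21.4% of the 14 genes tested, beside 7.47% of all genes tested. Cox5a, which binds at the matrix side, was at -0.023 ± 0.11.

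Several complex IV subunits and the c subunit of ATP synthase are encoded by more than 1 gene, with tissue-restricted or oxygen-regulated paralogs. The constitutive Cox4i1 held at least 99.7% of the summed RPKM of Cox4i1 and Cox4i2. Cox4i2, the lung-enriched paralog linked to oxygen sensing, held 0, 4 and 1 counts in CBM 1 to 3 and 2, 8 and 2 counts in EBM 1 to 3, which was above a floor of 3 counts in 2 of 6 libraries. Ndufa4l2, a HIF target and paralog of the complex IV subunit Ndufa4, held 9, 1 and 9 counts in CBM and 8, 19 and 3 counts in EBM, at most 1.99% of the summed RPKM of the pair. The regions overlapped in both, and 3 counts are worth 0.149 to 0.193 CPM depending on the library, a floor that covers counting error only. Of the muscle and testis forms, Cox6a2 held 3 counts and Cox8c 1 count over the 6 libraries, and Cox7b2 and Cox8b held none.

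**Figure D2:**
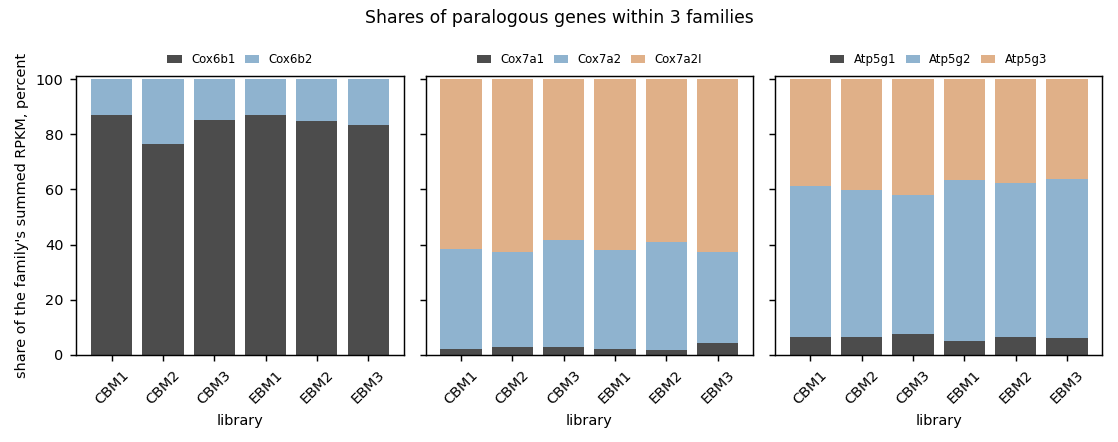
Share of each gene in the summed RPKM of its family, in percent, for each library. Cox6b2 holds 23.4% of its pair in CBM2 and 13.0% to 16.7% elsewhere, and the Atp5g2 share is 50.3% to 54.6% in CBM and 55.9% to 58.5% in EBM.

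Cox6b2, known as the testis form of the subunit Cox6b, was an exception. It had 498, 1074 and 616 counts in the CBM libraries beside 622, 585 and 730 counts in the EBM libraries, and it held from 13.0% to 23.4% of the summed RPKM of Cox6b1 and Cox6b2. CBM 2 was the highest library at 56.5 CPM, followed by EBM 3 at 46.9 CPM, and the 4 other libraries lay between 28.3 and 34.3 CPM. The regions overlapped (log2 -0.021 ± 0.29), and the value was 0.024 with limma-voom. Cox7a2l, a subunit variant linked to respiratory supercomplexes, held 58.2% to 62.8% of the RPKM of its family and Cox7a2 33.1% to 39.0%. Cox7a1, the heart and muscle form, held 1.8% to 4.17%, with the highest value in EBM 3.

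Complex V held 2 of the members without overlap between the regions, which is 11.8% of its 17 tested genes, beside 7.47% of all genes tested. Atp5c1 (ENSMUSG00000025781, chr2:10056016-10080510, minus strand), which encodes the gamma subunit that turns inside the catalytic head, stood at 179.8, 179.7 and 170.8 CPM in CBM and at 202.0, 193.2 and 219.0 CPM in EBM. Its fold change was 1.16 (log2 0.21 ± 0.089), with an unadjusted edgeR p of 0.049 and an adjusted p of 0.627. Atp5b stood at 1392, 1369 and 1461 CPM in CBM and at 1589, 1480 and 1661 CPM in EBM (log2 0.16 ± 0.091, edgeR adjusted p = 0.725). Atp5d, the delta subunit of the central stalk, overlapped through EBM 2 (log2 0.19 ± 0.097). Atp5o, in the stalk that holds the head, was at -0.071 ± 0.11, and Atp5s, coupling factor B, at -0.11 ± 0.2.

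The 3 genes of the c ring had unlike values. Atp5g2 stood at 221.5, 197.5 and 196.5 CPM in CBM and at 262.0, 216.7 and 245.5 CPM in EBM (log2 0.23 ± 0.11, edgeR adjusted p = 0.666). Its regions overlapped, since EBM 2 lay below CBM 1. Atp5g3 was at -0.019 ± 0.092 and Atp5g1 at -0.08 ± 0.12 on the log2 scale. Within the summed RPKM of the 3 genes, Atp5g2 held 54.6%, 53.6% and 50.3% in CBM and 58.5%, 55.9% and 57.5% in EBM. Atp5g3 held 38.9%, 40.1% and 42.2% in CBM and 36.5%, 37.5% and 36.3% in EBM. The share of Atp5g2 was thus higher in every EBM library than in any CBM library and that of Atp5g3 lower, which is a description of these shares with no test. Shares within a family have a fixed total, so these are not separate results. No gene of the other families had shares apart between the regions, and no background for shares was computed. All 3 genes encode the same mature protein, since the parts that differ are removed on import.

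**Figure D3:**
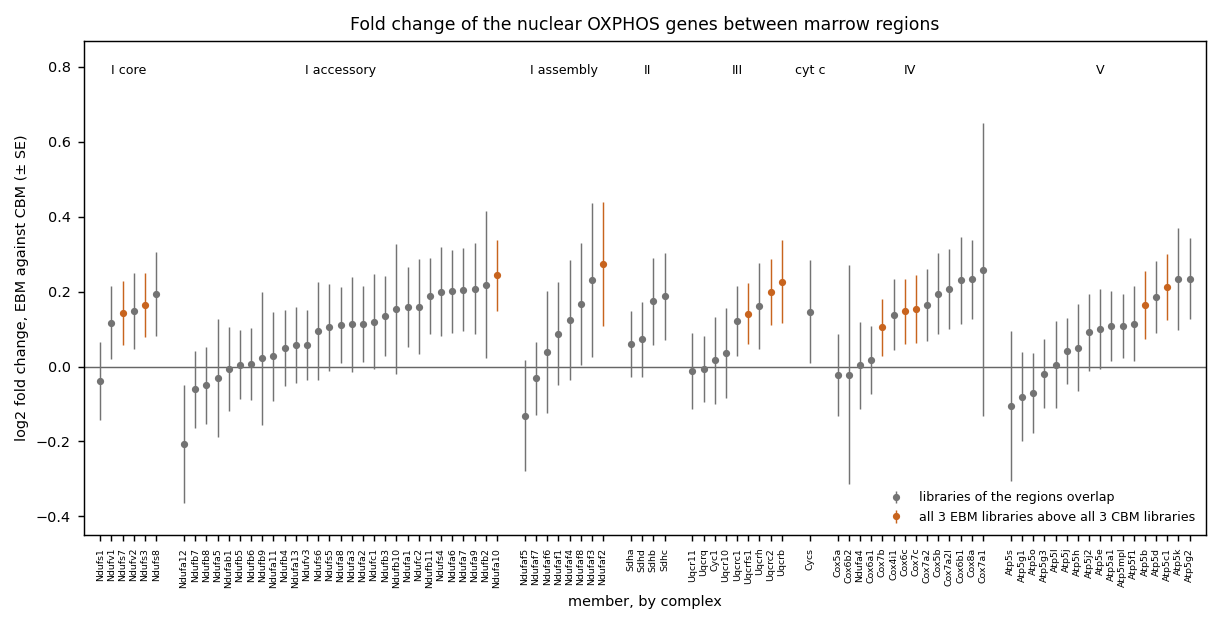
Log2 fold change of EBM against CBM for 88 of the 89 members tested, by complex, with bars for the standard error. Orange points mark the 12 members whose 3 EBM libraries all lie above the 3 CBM libraries. Most members sit between 0 and 0.27, and 16 lie below 0.

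Counted over all members, 2 of 89 (Ndufa10 and Atp5c1) had an unadjusted edgeR p under 0.05 and were higher in EBM, beside 4.01% of all genes tested, and 0 were lower, beside 3.9%. By DESeq2, no member reached an unadjusted p under 0.05, and its adjusted calls took 1.39% of the genes it adjusted and no member. The share of members higher at that p, 2.25%, did not exceed the background. The 3 libraries of each region did not overlap in 12 members (13.5%), all higher in EBM, beside 7.47% of all genes tested, and in 0 members lower in EBM, beside 7.65%. The 12 were Ndufa10, Ndufaf2, Ndufs7, Ndufs3, Uqcrfs1, Uqcrc2, Uqcrb, Cox7b, Cox6c, Cox7c, Atp5b and Atp5c1. For 84 of 89 members the estimate with 2 standard errors on either side stayed within 1.5-fold in both directions, and the 5 others were Ndufb2, Ndufaf3, Ndufaf2, Cox6b2 and Cox7a1. These errors cover only the spread between these libraries, which may be technical, and not the choice of scaling, so they do not bound a change between the regions. The members varied less between libraries than most genes, with a median SE of 0.11 on the log2 scale beside 0.18 for all genes tested, and with a median SD within a region of 0.115 log2 CPM beside 0.222. They also had higher counts, with a median of 74.4 CPM beside 26.8, and the spread was not compared at matched levels.

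Summed over all members, the level was 9577, 9821 and 9933 CPM in CBM 1 to 3 and 10692, 9841 and 11333 CPM in EBM 1 to 3. This gave means of 9777 ± 182 CPM (SD, n = 3) for CBM and 10622 ± 748 CPM for EBM, which differ by 8.64%. EBM 1 and EBM 3 lay above every CBM library and EBM 2 lay within them. Atp5a1 and Atp5b, the alpha and beta subunits of the catalytic head, held 24.1% of the sum, and without them the difference was 8.11%. Without EBM 3 the difference of the whole sum was 5.0%, and without EBM 2 it was 12.6%. The difference was 9.94% for complex IV, 8.95% for complex V, 8.71% for the complex I core, 8.07% for complex III, 7.58% for the complex I accessory subunits, 6.85% for complex II and 5.75% for the complex I assembly factors. With library totals in place of TMM factors, the difference of the sum fell to 3.27%, since the TMM factors were 0.948 to 0.994 in EBM and 1.01 to 1.04 in CBM.

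**Figure D4:**
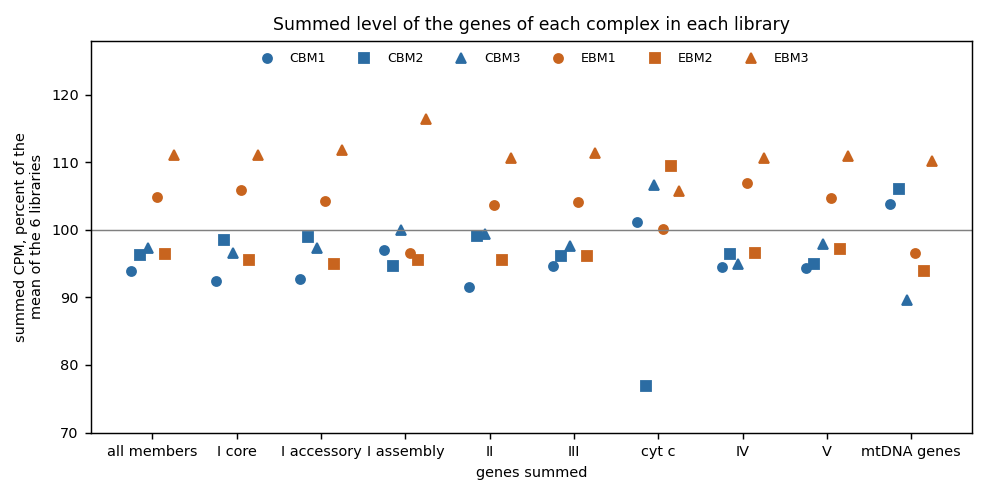
Summed CPM of all members, of each complex and of the 13 mitochondrially encoded subunits, as a percent of the mean of the 6 libraries. Blue symbols are CBM and orange symbols EBM libraries. EBM3 is the highest library in every sum but that of cytochrome c, and EBM2 lies among the CBM libraries in most.

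The 13 subunits encoded in the mitochondrial genome, which join the nuclear subunits in complexes I, III, IV and V, had another order of libraries. They summed to 14341, 14642 and 12374 CPM in the CBM libraries and to 13331, 12970 and 15226 CPM in the EBM libraries, so that the means differ by 0.411%. The genes entered these sums very unevenly. The gene mt-Co1 had means of 6480 CPM in CBM and 6860 CPM in EBM. In contrast mt-Co2, mt-Co3, mt-Atp6, mt-Nd3, mt-Nd4l and mt-Atp8 had means of at most 85.7 CPM in either region. The sums and the percentages below thus mostly follow the genes with high counts, and the cause of this unevenness was not tested. The nuclear sum was 66.8%, 67.1% and 80.3% of the mitochondrial sum in CBM and 80.2%, 75.9% and 74.4% in EBM. CBM 3 therefore stood with EBM rather than with the other CBM libraries. Of the 13 genes, 6 had log2 fold changes above 0 and 7 below, with a median of -0.0069.

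In the pattern of the nuclear members over libraries, EBM 3 stood out most, and part of the difference remained without it. After the mean over the 6 libraries was taken from each member, the median was -0.0875, -0.0368 and -0.041 log2 CPM in CBM 1 to 3 and 0.0669, -0.0587 and 0.155 log2 CPM in EBM 1 to 3. EBM 2 thus fell among the CBM libraries. EBM 3 was the highest library for 55 members (61.8%), beside 23.2% of all genes tested, and CBM 1 the lowest for 34 (38.2%), beside 18.5%. Without EBM 3 the median log2 fold change of the members was 0.053, with 55 of 89 above 0. Without EBM 2 it was 0.17, and 11 members had an unadjusted edgeR p under 0.05, all higher in EBM, beside 3.54% of all genes tested in that fit. No member had such a p on the higher side without CBM 2, CBM 3, EBM 1 or EBM 3, beside 2.66% to 4.35% of all genes tested. Without CBM 1 there was 1 such member, beside 3.65%. EBM 3 was also the library with the fewest counts, the lowest TMM factor and the fewest genes with a count, 18509 beside 19461 to 20384 in the others. Among the EBM libraries it was the highest for all erythroid marker genes read here but Hbb-bs and Hbb-bt, which were lowest there. Slc4a1 stood at 433.5, 770.8 and 2125 CPM in EBM 1 to 3, and CBM 2 held 2236 CPM of it. The part of these in the result was not tested.

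**Figure D5:**
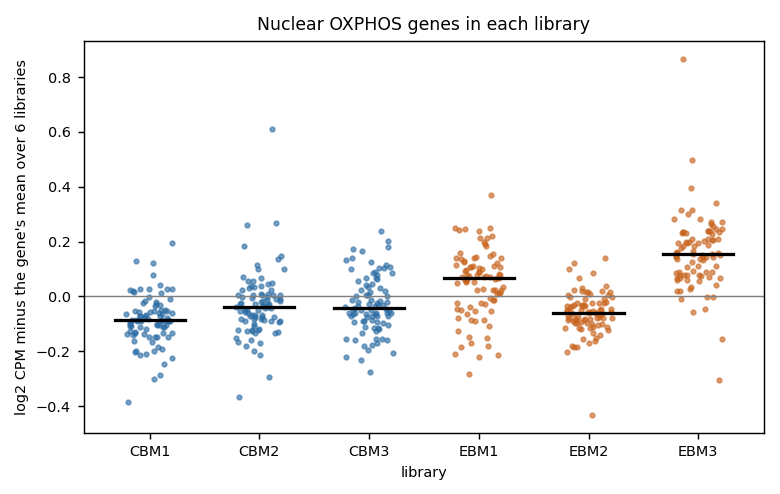
Log2 CPM of each of the 89 members minus its own mean over the 6 libraries, 1 point per member and library, with black lines for the median. EBM3 (median 0.155) and EBM1 (0.0669) stand above 0, while EBM2 (-0.0587) stands with the 3 CBM libraries.

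Other genes of the pathway were read beside the members, and none passed the adjusted edgeR test. Of the 14 tested genes of the citric acid cycle outside complex II, 12 lay above 0 with a median log2 fold change of 0.13, and 4 were higher in EBM without overlap, beside 50.4% and 7.47% of all genes tested. Of the 13 genes for coenzyme Q synthesis and function, 11 lay above 0 and 3 were higher without overlap. Among these, Coq10b, a coenzyme Q binding protein, had the largest value at 0.99 ± 0.12, from 15.7, 18.5 and 16.4 CPM in CBM to 31.6, 32.3 and 36.3 CPM in EBM (edgeR adjusted p = 0.115). DESeq2 called it, with an adjusted p of 3.283e-07. The assembly factors outside the rule had medians near 0, at 0.044 for 11 of complex I, -0.01 for 6 of complex III and 0.018 for 23 of complex IV. The 4 of complex II had a median of 0.1 and the 4 of complex V of 0.086. Sdhaf1, which inserts iron-sulfur clusters into complex II, was at 0.63 ± 0.17 (edgeR adjusted p = 0.409), and Cox15, which makes the heme of complex IV, at -0.26 ± 0.091 (edgeR adjusted p = 0.546). The 9 tested genes of protein import and of ADP, ATP and phosphate carriers had a median of 0.1. For the 77 tested mitochondrial ribosomal proteins, a list added after the data were seen, 60 lay above 0 with a median of 0.077, and 11 were higher in EBM without overlap.

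The regulators of nuclear mitochondrial genes lay on both sides of 0. Of the 17 tested, 9 lay above 0 and 8 below, with a median of 0.012. Gabpb1, a subunit of GABP, stood at 39.6, 40.3 and 39.2 CPM in CBM and at 61.4, 61.5 and 49.0 CPM in EBM, without overlap (log2 0.53 ± 0.12, edgeR adjusted p = 0.296). Its paralog Gabpb2 was the more abundant, with means of 222 CPM in CBM and 193 CPM in EBM. It lay on the other side of 0, at -0.2 ± 0.12, and its regions overlapped. Gabpa, the DNA-binding subunit of GABP, was at -0.089 ± 0.1, Nrf1 at 0.19 ± 0.14 and Tfam, the mitochondrial transcription factor, at 0.08 ± 0.099. Sp1, of the Sp factors, was higher in EBM without overlap, at 0.34 ± 0.11 (edgeR adjusted p = 0.52). Myc, which drives many mitochondrial genes, had the lowest value at -1.26 ± 0.11 (edgeR adjusted p = 0.0583), and DESeq2 called it, with an adjusted p of 2.452e-13. The coactivator Ppargc1a was at or near the floor in every library, at most 0.331 CPM. Of the 14 tested oxygen-linked respiratory genes 9 lay above 0, with a median of 0.075, and none had an unadjusted edgeR p under 0.05.

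Part of the members had a close neighbour that starts in the opposite direction. Of the 96, tested or not, 23 (24.0%) had another protein-coding gene starting so within 1000 bases, beside 11.7% of 10791 tested protein-coding genes. Ndufa7 starts 10 bases from Rps28, and Sdhd 98 bases from Timm8b, a gene of mitochondrial import. Partners did not have the members' values throughout: beside Atp5c1 at 0.21, its neighbour Kin was at -0.058 on the log2 scale. The exons of 29 members overlap a gene on the opposite strand, and in 3 of them (Ndufaf2, Ndufb6 and Ndufa13) over at least 20% of the exon bases. Processed pseudogenes of members held few counts, at most 461 for Ndufab1-ps. The gene listed as Ndufb1-ps, which the rule leaves out as it is not typed as protein-coding, held 7679 counts.

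The libraries held between 16436526 and 19462964 counts on genes, and the members took 0.977% to 1.07% of them. Of 9 blast genes, 5 were tested, with sums of 1250 to 1570 CPM in CBM and 1430 to 1740 CPM in EBM. Gata2, Myb and Kit held most of these sums, while Flt3, Meis1, Prom1 and Hoxa9 had means of at most 0.454 CPM. Of 14 osteoblast and stromal genes 1 was tested, Alpl, Sp7 and Bglap2 were at 0, and the sums were 8.48 to 13.4 CPM in CBM and 8.17 to 10.3 CPM in EBM. The tested gene, Runx2, held most of them, with means of 9.29 CPM in CBM and 7.94 CPM in EBM. Of the 10 erythroid genes all were tested, and their sums were high in both regions, at 3200 to 9590 CPM in CBM and 3760 to 7550 CPM in EBM. Neutrophil genes, 7 of 9 tested, summed to 3.37 to 228 CPM in CBM and 35.2 to 163 CPM in EBM, and osteoclast genes, 2 of 7 tested, to 270 to 549 CPM and 259 to 566 CPM, with Ocstamp, Dcstamp and Calcr at 0. Nearly all of the osteoclast sum was Acp5, with means of 392 CPM in CBM and 373 CPM in EBM. The other osteoclast genes stayed low, with Ctsk at most at 0.221 CPM and Mmp9 at most at 8.48 CPM. Endothelial genes (3 of 8 tested, Emcn at 0), macrophage genes (2 of 9), B cell genes (2 of 8, Ms4a1 and Igll1 at 0), T cell genes (1 of 7) and megakaryocyte genes (3 of 7, Gp1bb at 0) each summed to under 30 CPM in every library. The sums of each of these marker lists overlapped between the regions, and their part in the members' values was not tested.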

How the data were processed

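RNA-seq was done on leukemia cells of the central and the endosteal bone marrow of AE9a mice, with 3 libraries of each. Per the study's methods, directional libraries were made from rRNA-depleted RNA and read as paired ends. The submitters' processing notes name HISAT2 2.0.5 and the build mm10. The counting tool, its annotation and its use of strand are not given in the sources used here. The authors deposited raw counts per gene without normalization, together with a gene length, and 98.3% of the identifiers shared with GENCODE M21 had its coordinates.

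After the low-count filter filterByExpr and TMM scaling (both edgeR 4.0.16), the quasi-likelihood F-test was run without a block, with Benjamini-Hochberg adjustment over all genes tested at 0.05. The standard error is the absolute log2 fold change divided by the square root of F. CPM is TMM-normalized, RPKM is CPM per 1000 bases of the deposited gene length, and single genes were also compared by exact permutation of log2 CPM (prior count 2). Libraries held 16436526 to 19462964 counts. The method was tested on simulated data. Alternatives were DESeq2 1.42.0, limma-voom (limma 3.58.1), other scalings and filters, a loess correction for gene length (span 0.3), the replicate number as a block, and each library left out in turn.

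The members and lists were chosen with earlier results of these data known. Named members were the 6 genes listed singly, the paralog families, up to 3 members with the smallest p in each direction per complex, and the highest and lowest level per length. The other members without overlap between regions, and single genes outside the complexes, were named after their values were seen. List genes were matched by symbol or RefSeq synonym, and Coa1 was not matched. Other libraries of the study were not analysed here. The values of 1 member are not reported here, and it enters only counts, medians, sums and the plot of all members by library.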

Additional observations from a re-analysis of the deposited data

How the results depend on the processing

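No member passed the adjusted test in any alternative, with adjusted p from 0.527 to 1.0 over the named members. Over all genes, 0 passed with edgeR, 175 with DESeq2, 40 without a filter on low counts and 1 with the gene length correction. Members at an unadjusted p under 0.05 and higher in EBM numbered 2, and 1 with limma-voom or RLE factors, 0 with DESeq2, upper quartile factors, no filter, the gene length correction, or the block with that correction, and 0 to 11 with a library left out. On the lower side they numbered 0, and 0 to 1 with a library left out. Of all genes tested in the main fit, 4.01% had such a p and were higher in EBM, and 3.9% were lower. The higher share ran from 2.15% with DESeq2 to 4.64% with the block, and from 2.66% to 4.35% with a library left out. The causes were not tested. The median log2 fold change of the members stayed above 0 in all 15 alternatives, from 0.053 to 0.17, and the summed difference ran from 3.27% to 12.6%.

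The labels do not say whether the replicate numbers pair the libraries. Same-numbered libraries correlated in their deviations from the region means at 0.68, -0.2 and 0.2, and differently numbered ones at -0.67 to 0.51. The deviations cancel out within a region, so these correlations depend on one another and cannot decide whether libraries are paired. A fit with the number as a block gave a median of 0.11, and no gene passed the adjusted test. In that fit 2 members (Atp5g2 and Cox8a) had an unadjusted edgeR p under 0.05, both higher in EBM, beside 4.64% of all genes tested.

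Of the 735 values of 49 named members over the alternatives, 692 kept their sign, and 43 in 18 members did not. Cox6a1 was at -0.017 with upper quartile factors, -0.041 with the gene length correction and -0.0398 with block and length correction. Cyc1 was at -0.019, -0.0006 and -0.0069 there, and Ndufa4 at -0.0299, -0.0404 and -0.0391, and at -0.0011 with a filter of 1 CPM. Cox6b2 was at 0.024 with limma-voom and 0.035 with the block. With a library left out, the log2 fold changes of the members whose sign turned ran as follows. Atp5g1 ran from -0.16 to 0.0054, Atp5g3 from -0.062 to 0.019, Atp5o from -0.13 to 0.0024, Atp5s from -0.29 to 0.0033, Cox5a from -0.071 to 0.068 and Cox6a1 from -0.032 to 0.055. Cox6b2 ran from -0.21 to 0.37, Cox7a1 from -0.28 to 0.496, Cyc1 from -0.089 to 0.0903, Ndufa4 from -0.083 to 0.065, Ndufaf1 from -0.054 to 0.15 and Ndufaf3 from -0.0046 to 0.33. Ndufb7 ran from -0.14 to 0.0055, Ndufb8 from -0.11 to 0.0086, Ndufs1 from -0.11 to 0.0298, Sdhd from -0.0104 to 0.13, Uqcr11 from -0.058 to 0.058 and Uqcrq from -0.052 to 0.031.

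Tested members had mean levels of 2.72 CPM or more, and the paralogs with single counts cannot be compared at this depth. Region and collagenase digestion cannot be told apart, and 3 against 3 libraries allow no exact p below 0.1.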
